A study of Homo sapiens with 60 samples.

Results

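Raising the concentration of a hot-water extract of Cimicifugae Rhizoma, the rhizome of an Actaea (Cimicifuga) species used in East Asian herbal medicine, from 20 to 100 µg/mL was examined in HepG2 cells, a line grown from a human liver tumour. The comparison was defined by its sample labels: 3 libraries at 100 µg/mL were set against 3 at 20 µg/mL, which is 6 of the 60 libraries of the series. The series profiled total RNA of HepG2 cells after 24 h with 7 herbal water extracts at 20, 100 and 500 µg/mL and with a DMSO vehicle. The vehicle is given as 0.1% DMSO in the sample labels and as 2% DMSO in the series' design text, which also names a wortmannin control that is not analysed here; which concentration was used cannot be told from these. Groups used beside the main pair were the 3 vehicle libraries, the 3 libraries at 500 µg/mL of the same extract, and 3 libraries each at 20 and 100 µg/mL of the extracts of Citri Unshius Pericarpium and Aconiti Lateralis Radix Preparata. All groups were HepG2 cells in DMEM with 10% serum. The cell line is of 1 tumour origin, and each extract is a mixture of plant compounds. The labels do not say whether the 3 libraries of a dose came from separate cultures. The p-values and SE rest on the spread between libraries of a group, estimated over the 19 groups fitted together. That spread may be technical.

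Several of the genes named here belong to 3 well-described systems. CYP1A1, a cytochrome P450 that oxidises aromatic compounds, is induced by the aryl hydrocarbon receptor (AHR), a ligand-activated transcription factor that binds a short core motif with its partner ARNT. Metallothioneins are small cysteine-rich proteins that bind zinc and copper; their genes lie in a cluster on chromosome 16 and are switched on by the zinc sensor MTF1 through metal response elements. Hepcidin, the product of HAMP, is the liver hormone that limits iron export into blood, and its gene, like ID1, ID2, ID3 and SMAD9, is a target of bone morphogenetic protein (BMP) signalling through SMAD proteins.

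The promoters of 5 genes of these systems are shown because the results turn on these genes. Each run is the 250 bases before the annotated start in RefSeq (GRCh38.p14), written 5′ to 3′ on the gene's strand; capitals mark matches on either strand to a metal response element (TGCACNC or TGCGCNC) in MT1X, MT2A and SLC30A1, to the SMAD core GGCGCC in HAMP and to the AHR core GCGTG in CYP1A1.
MT1X (chr16:56682220-56682469, plus strand): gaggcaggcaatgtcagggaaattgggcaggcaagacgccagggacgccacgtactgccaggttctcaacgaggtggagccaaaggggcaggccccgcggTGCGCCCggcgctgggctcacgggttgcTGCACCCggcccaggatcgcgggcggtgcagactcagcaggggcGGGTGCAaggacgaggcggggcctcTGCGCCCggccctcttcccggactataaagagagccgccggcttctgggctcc
MT2A (chr16:56608334-56608583, plus strand): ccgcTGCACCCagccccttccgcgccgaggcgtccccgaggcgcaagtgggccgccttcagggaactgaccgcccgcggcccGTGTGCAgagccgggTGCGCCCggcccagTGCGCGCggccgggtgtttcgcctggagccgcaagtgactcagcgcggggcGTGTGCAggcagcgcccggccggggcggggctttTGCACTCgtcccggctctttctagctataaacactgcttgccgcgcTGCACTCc
SLC30A1 (chr1:211579162-211579411, minus strand): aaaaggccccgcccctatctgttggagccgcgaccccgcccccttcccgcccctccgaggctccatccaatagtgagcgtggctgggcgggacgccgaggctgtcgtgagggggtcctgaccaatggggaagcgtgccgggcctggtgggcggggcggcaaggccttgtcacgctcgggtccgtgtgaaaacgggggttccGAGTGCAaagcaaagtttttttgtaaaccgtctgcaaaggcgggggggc
HAMP (chr19:35282278-35282527, plus strand): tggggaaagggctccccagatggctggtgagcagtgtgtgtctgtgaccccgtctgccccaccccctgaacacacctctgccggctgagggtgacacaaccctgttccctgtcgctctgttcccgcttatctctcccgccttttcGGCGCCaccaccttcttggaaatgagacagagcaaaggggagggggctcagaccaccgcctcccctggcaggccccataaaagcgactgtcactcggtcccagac
CYP1A1 (chr15:74725529-74725778, minus strand): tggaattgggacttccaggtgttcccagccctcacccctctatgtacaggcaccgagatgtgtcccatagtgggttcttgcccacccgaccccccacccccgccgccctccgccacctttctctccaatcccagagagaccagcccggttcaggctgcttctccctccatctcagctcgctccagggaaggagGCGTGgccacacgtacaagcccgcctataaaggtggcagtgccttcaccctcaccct
MT2A held 7 matches to the metal response element, MT1X held 4 and SLC30A1 held 1. A match was found in 24.8% of 35116 promoter windows of the same length, and 4 or more in 0.37% of them. HAMP held 1 GGCGCC, which occurred in 16.4% of the windows, and no match lay in the windows of ID1, ID2, ID3 or SMAD9. CYP1A1 held 1 GCGTG, which occurred in 32.2% of the windows. Of 13 genes looked for, 9 had an entry; MT1E, MT1F, MT1G and MT1M had none. Matching letters describe the sequence and show no binding in these cells.

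Counts were summed per gene, and levels are given as CPM, counts scaled to the library's effective total. The 6 libraries held 20711534 to 24313341 counts, against 17598646 to 30451640 over the series. All 12 liver cell line markers stood at 1 CPM or more in all 6 libraries. Of 10 fibroblast and stellate cell markers 4 were at 0 in all 6 libraries (DCN, LUM, LRAT and POSTN), as were 7 of 15 endothelial and blood markers and 2 of 8 bile duct markers. Members that reached 1 CPM in at least 1 library were COL1A1, PDGFRB, ACTA2 and RGS5 of the first list. In the second list they were PECAM1, CD14, CD68 and LYZ, and in the bile duct list KRT19, SOX9, EPCAM and SPP1. Per library total, without scaling, LYZ stood at 1160 to 1530 CPM and SPP1 at 501 to 596 CPM. Libraries of the 100 µg/mL group differed more from each other than those of the 20 µg/mL group, with a chi-square per gene of 4.2 to 6.71 against 2.61 to 3.04, and the third library at 100 µg/mL was the farthest from the other two.

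At 100 against 20 µg/mL, 122 of 16093 genes tested were higher (0.758%) and 85 were lower (0.528%) by edgeR's quasi-likelihood test with Benjamini-Hochberg adjusted p below 0.05. In 204 of these 207 genes the 6 libraries did not overlap between doses, a separation seen in 19.6% of all genes tested. The changes were small. The median was 0.29 on the log2 scale among the higher genes and -0.25 among the lower ones, 178 genes changed by less than 0.5, and 12 changed by 1 or more, which is a doubling or halving. Over all genes tested the median difference was 0.003. The number of called genes depended on single libraries: it was 107 without the first library at 100 µg/mL and 109 without the third, and 125, 121 and 127 without the first, the second or the third at 20 µg/mL. Without the second library at 100 µg/mL it was 234.

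**Figure D1:**
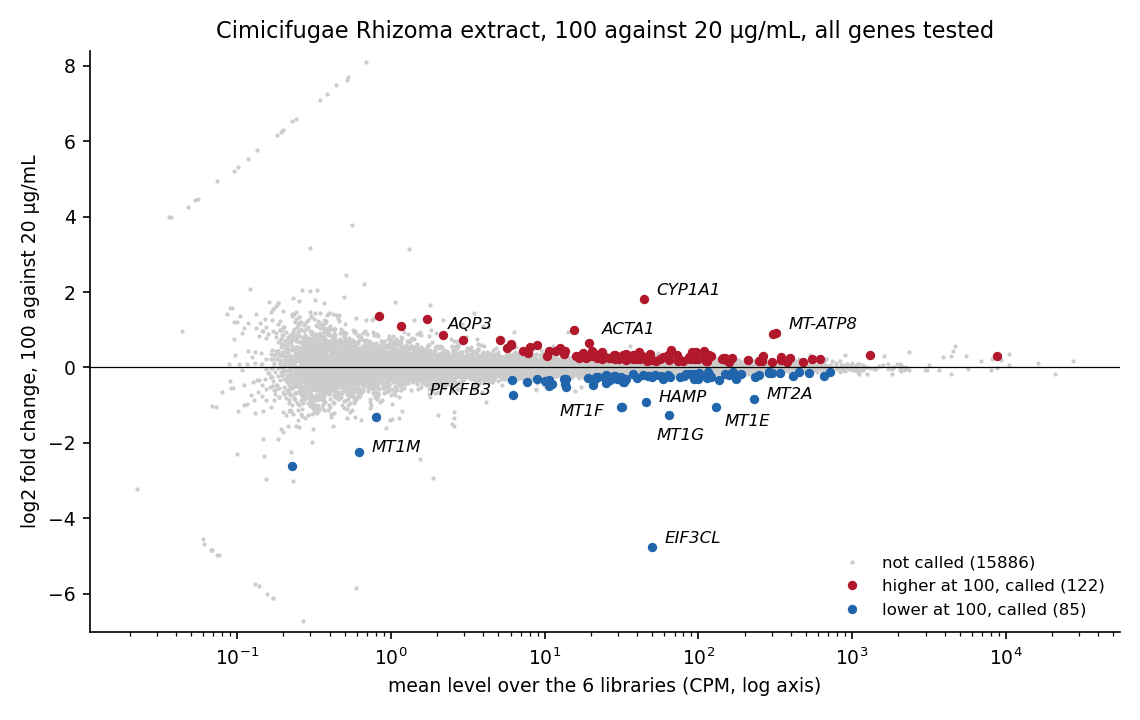
Difference between 100 and 20 µg/mL (vertical axis, log2) against mean level over the 6 libraries (horizontal axis, CPM, log scale) for the 16093 genes tested. Red points are the 122 higher genes, blue points the 85 lower genes and grey points the rest; CYP1A1 stands above and the metallothioneins and HAMP below most called genes of their level.

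CYP1A1 (chromosome 15, 74719542 to 74725610, minus strand, GRCh38) had the smallest adjusted p of the comparison. It stood at 20.2, 17.9 and 21.2 CPM at 20 µg/mL and at 66.4, 72.1 and 68.5 CPM at 100 µg/mL. Vehicle libraries stood at 13, 11 and 13.9 CPM. The doses did not overlap, and every library at 20 µg/mL was above every vehicle library, a difference that was not tested. The rise was 1.80 ± 0.10 on the log2 scale (SE, n = 3 against 3; adjusted p = 1.72e-17). In bulk RNA a change in the number of cells of one kind and a change in RNA per cell cannot be told apart.

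Few other genes of the AHR list moved at this step. Of 12 tested members 2 rose, CYP1A1 and the quinone reductase NQO1, against 0.758% of all genes tested. NFE2L2, which encodes the transcription factor NRF2, was the 1 member that fell, against 0.528%. The list's median was 0.07. NQO1 stood at 566, 560 and 581 CPM at 20 µg/mL and at 655, 673 and 660 CPM at 100 µg/mL, a difference of 0.22 ± 0.048 (adjusted p = 0.00629) that missed the threshold without the second library at 20 µg/mL (0.21, adjusted p = 0.0572). Its vehicle level of 656 to 679 CPM overlapped that of the higher dose. AHRR, the receptor's repressor, stood at 0.58 to 0.626 CPM and at 0.52 to 1.14 CPM and did not pass (adjusted p = 0.671), nor did TIPARP, an AHR target that feeds back on the receptor (-0.08 ± 0.063, adjusted p = 0.663). NFE2L2 stood at 266, 272 and 260 CPM and at 228, 236 and 224 CPM, without overlap (-0.22 ± 0.041, adjusted p = 0.00143).

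Metallothionein genes made up 5 of the 8 genes lowered by 1 or more on the log2 scale. Of 12 tested members of the metallothionein and zinc list 7 fell and 1 rose, against 0.528% and 0.758% of all genes tested, with a median of -0.57, and 7 fell whichever of the 6 libraries was left out. MT1G (chromosome 16, 56666731 to 56668065) stood at 89.1, 94.3 and 88.9 CPM at 20 µg/mL and at 40.5, 37.8 and 34.3 CPM at 100 µg/mL, with vehicle at 83.8, 85.1 and 110 CPM. Both doses were tight and well apart, and the lower dose lay among the vehicle libraries. MT1G fell by 1.27 ± 0.12 (adjusted p = 1.06e-09).

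MT1F (56657694 to 56660698) stood at 42.2, 44.9 and 42.4 CPM and at 21.2, 21.3 and 19.5 CPM, and fell by 1.06 ± 0.097 (adjusted p = 1.82e-10). Its vehicle libraries stood at 67.2, 64.1 and 69.3 CPM, above both doses. MT1E (56625475 to 56627112) stood at 176, 180 and 172 CPM and at 86.7, 90.9 and 75.0 CPM, and fell by 1.06 ± 0.11 (adjusted p = 1.35e-09). MT1X (56682424 to 56684196) stood at 42.4, 43.2 and 40.9 CPM and at 21.6, 20.3 and 19.6 CPM, and fell by 1.04 ± 0.12 (adjusted p = 3.25e-08). In these genes the 2 doses did not overlap. MT2A (56608199 to 56609497) stood at 312, 321 and 256 CPM and at 165, 178 and 157 CPM, and fell by 0.83 ± 0.13 (adjusted p = 3.33e-05). MT1M, the lowest of the called members, stood at 1.06, 1.12 and 0.911 CPM and at 0.227, 0.173 and 0.238 CPM (-2.25 ± 0.35, adjusted p = 7.93e-05). DESeq2 gave MT1M no adjusted p and did not call it (-2.28). With a minimum mean of 1 CPM it was not tested. MT1A, also low, stood at 1.99 to 2.32 CPM and at 1.73 to 1.77 CPM and did not pass (-0.29 ± 0.15, adjusted p = 0.524). Metallothionein genes are near-identical in sequence, and the deposited expected counts share ambiguous reads among them, so that the split between members is less certain than their common direction.

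Of 4 tested genes of the SLC30 and SLC39 transporter families in the list 1 fell, 1 rose and 2 did not pass. SLC30A1, the exporter that zinc induces through MTF1, stood at 111, 110 and 110 CPM at 20 µg/mL and at 86.9, 94.8 and 85.6 CPM at 100 µg/mL, with no overlap (-0.31 ± 0.046, adjusted p = 3.33e-05). SLC39A10, a zinc importer, stood at 16.1, 16.3 and 17.8 CPM and at 20.9, 19.6 and 20.4 CPM, and rose by 0.28 ± 0.069 (adjusted p = 0.0266). It missed the threshold without the first or the third library at 100 µg/mL (0.25 and 0.27, adjusted p = 0.147 and 0.105) or the first or second at 20 µg/mL (0.24 and 0.26, adjusted p = 0.18 and 0.125), so that no member of the list rose there. SLC39A14, another importer of the list, stood at 920 to 924 CPM and at 856 to 868 CPM and did not pass (-0.10 ± 0.033, adjusted p = 0.16). SLC30A10, another member of the SLC30 family, stood at 18.3 to 21.7 CPM and at 17.7 to 20.1 CPM, which overlap (-0.11 ± 0.067, adjusted p = 0.557).

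HAMP (chromosome 19, 35280716 to 35285143) stood at 52.6, 60.8 and 65.2 CPM at 20 µg/mL and at 30.4, 32.9 and 30.9 CPM at 100 µg/mL. Vehicle libraries stood at 68.5, 66.1 and 63.9 CPM, so that the third library at 20 µg/mL lay among them and the 100 µg/mL libraries lay below all others. HAMP fell by 0.92 ± 0.12 (adjusted p = 8.34e-07). Of 18 tested genes of the BMP-SMAD and hepcidin list 4 fell, against 0.528% of all genes tested, and none rose, with a median of -0.12; besides HAMP they were ID2, ID3 and SMAD9. The count was 3 without any one of the libraries at 100 µg/mL or the second at 20 µg/mL, and 2 without the third at 20 µg/mL.

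ID2, an inhibitor of helix-loop-helix transcription factors, stood at 141, 157 and 158 CPM and at 115, 120 and 127 CPM (-0.33 ± 0.054, adjusted p = 0.000124). ID3 stood at 59.8, 67.0 and 67.7 CPM and at 50.6, 52.7 and 53.6 CPM (-0.31 ± 0.077, adjusted p = 0.024), and missed the threshold without any one of the libraries other than the first at 20 µg/mL (-0.28 to -0.33, adjusted p = 0.057 to 0.153). SMAD9, a receptor-activated SMAD, stood at 22.6, 22.4 and 25.0 CPM and at 18.9, 18.8 and 19.3 CPM (-0.30 ± 0.060, adjusted p = 0.00239), and missed the threshold without the third library at 20 µg/mL (-0.25, adjusted p = 0.0515). None of the 3 overlapped between doses. ID1 did not overlap either, at 174, 180 and 176 CPM against 144, 149 and 148 CPM, but did not pass (-0.26 ± 0.084, adjusted p = 0.124); it passed in 5 of the other settings tried. The inhibitory SMADs, SMAD6 and SMAD7, did not pass (-0.18 ± 0.085 and -0.12 ± 0.060). Iron uptake and storage genes showed no call among 14 tested by edgeR or by DESeq2, and 2 were at an unadjusted p under 0.05. Their summed level was 12700 to 13000 CPM at 20 µg/mL and 13800 to 14300 CPM at 100 µg/mL, without overlap. In vehicle it was 12400 to 13200 CPM. Of the 14 differences 9 were negative, with a median of -0.04. The ferritin gene FTL had the most positive difference and held most of the summed level. The ferritin light chain FTL stood at 7460, 7300 and 7760 CPM and at 9010, 8520 and 8820 CPM (0.23 ± 0.079, adjusted p = 0.17) and passed in 2 other settings, with no filter on low counts (adjusted p = 0.00017) and with the 6 libraries fitted alone (0.00428). The transferrin receptor TFRC stood at 475 to 487 CPM and at 469 to 474 CPM.

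**Figure D2:**
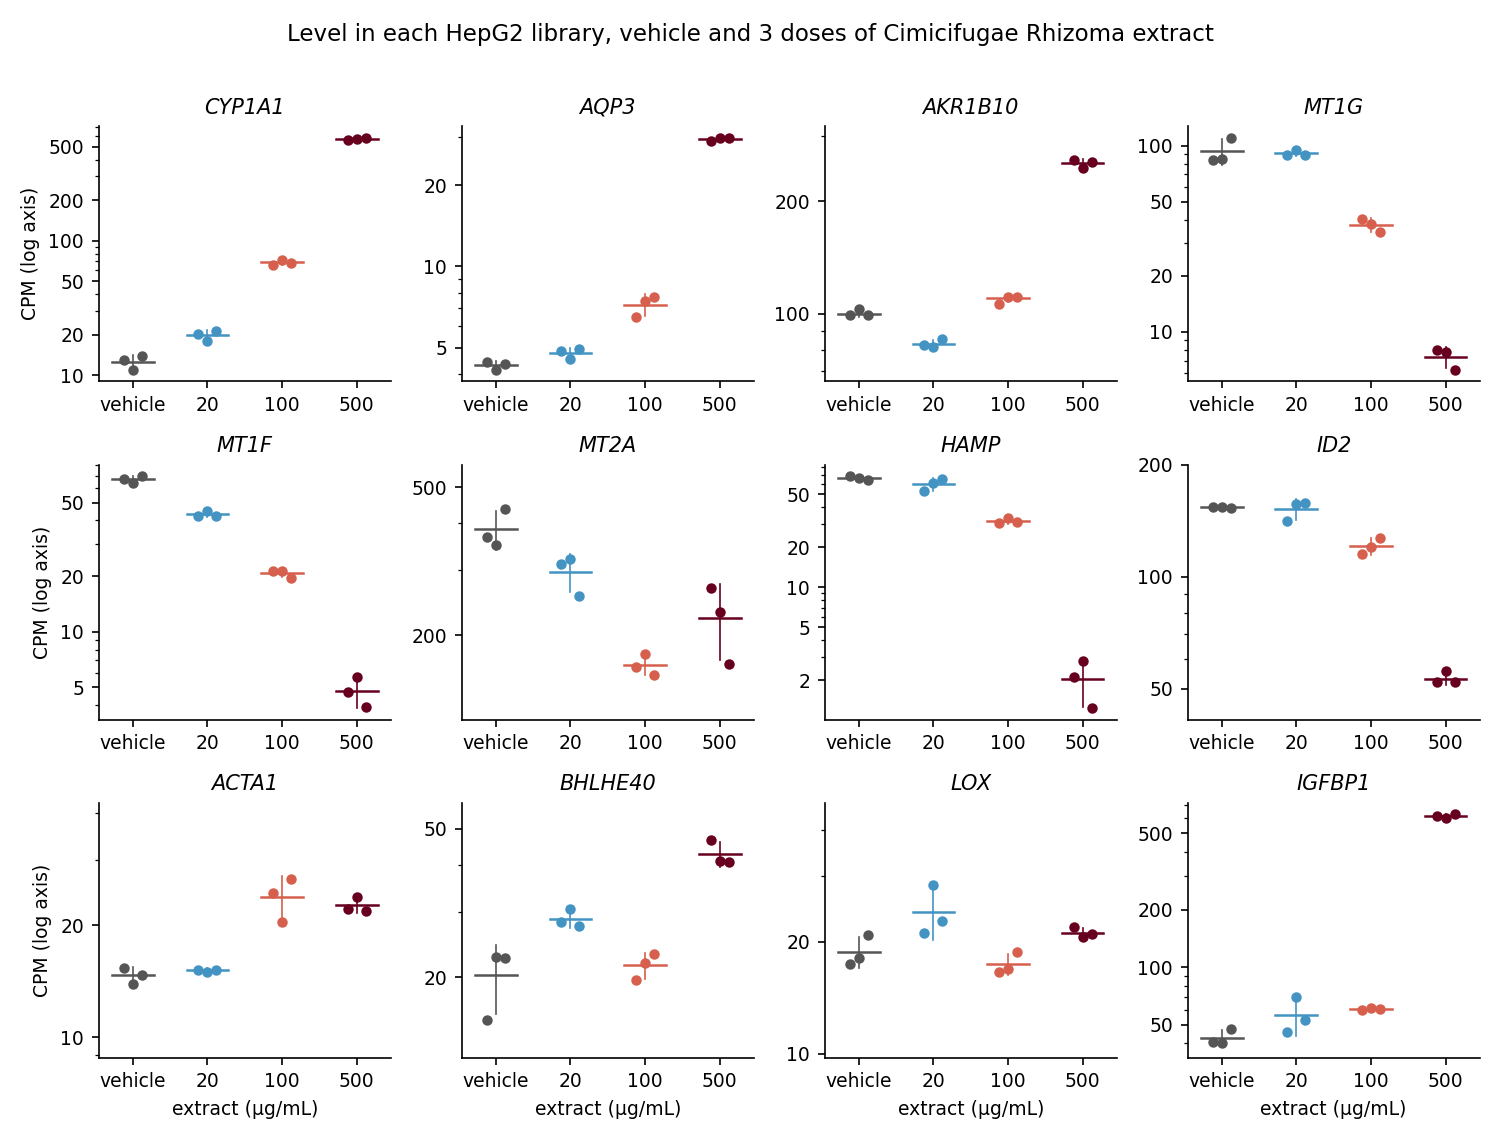
Level (CPM, log axis) of 12 genes in each library of the vehicle and of Cimicifugae Rhizoma at 20, 100 and 500 µg/mL; points are libraries, bars the mean and vertical lines ± SD (n = 3). CYP1A1 climbs from 17.9 to 21.2 CPM at 20 µg/mL to 557 to 579 CPM at 500 µg/mL, MT1G and HAMP drop at each dose step, and IGFBP1 stays at 45.8 to 70.2 CPM until 500 µg/mL.

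Targets of NRF2, the factor that induces antioxidant and conjugating enzymes, gave several small rises. Of 27 tested members 7 rose, against 0.758% of all genes tested, and none fell; 25 differences were positive, and the median was 0.13. AKR1B10, an aldo-keto reductase, stood at 82.1, 81.2 and 85.4 CPM at 20 µg/mL and at 106, 111 and 111 CPM at 100 µg/mL, and rose by 0.40 ± 0.048 (adjusted p = 1.63e-07). Its vehicle level of 99.0 to 103 CPM lay between the doses. SQSTM1, the autophagy receptor p62, stood at 242, 232 and 237 CPM and at 286, 290 and 298 CPM (0.30 ± 0.032, adjusted p = 1.67e-08); the lower dose overlapped the vehicle level of 230 to 237 CPM and the higher dose lay above it. GCLM, a subunit of the enzyme that limits glutathione synthesis, stood at 51.6, 51.1 and 52.7 CPM and at 60.8, 61.1 and 60.4 CPM (0.23 ± 0.045, adjusted p = 0.00175). For AKR1B10, NQO1 and GCLM the 20 µg/mL libraries were thus below the vehicle, at 57.7 to 61.6 CPM for GCLM; the sample codes in the titles begin with B1 for the vehicle and with 5 for this extract, and what these codes stand for is not given, so that anything they mark cannot be told apart from the treatment there. The other risers were the efflux pumps ABCC2 (0.24) and ABCC3 (0.21) and the sulfiredoxin SRXN1 (0.17). ABCC3 missed the threshold without any one library other than the third at 20 µg/mL (0.18 to 0.23, adjusted p = 0.0554 to 0.235). SRXN1 did so without the same libraries (0.14 to 0.19, adjusted p = 0.0537 to 0.208). SRXN1 also missed it with the GC trend removed (adjusted p = 0.09) and with no filter on low counts (0.0811). The count of risers was 5 without the first or second library at 100 µg/mL, 4 without the third at 100 or the first at 20 µg/mL, 3 without the second at 20 µg/mL and 7 without the third at 20 µg/mL; ABCC2 missed the threshold without the third library at 100 µg/mL (0.22, adjusted p = 0.0668) and the first or second at 20 µg/mL (0.22 and 0.23, adjusted p = 0.0618 and 0.0507).

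Some of the largest rises belonged to no single pathway. ACTA1, skeletal muscle actin, stood at 15.2, 15.0 and 15.2 CPM at 20 µg/mL and at 24.5, 20.4 and 26.7 CPM at 100 µg/mL, against 13.9 to 15.4 CPM in vehicle, and rose by 0.65 ± 0.078 (adjusted p = 1.63e-07). AQP3, a channel for water and glycerol, stood at 4.88, 4.56 and 4.93 CPM and at 6.48, 7.45 and 7.73 CPM (0.59 ± 0.085, adjusted p = 1.42e-05). PANX2, a pannexin channel, stood at 4.76, 4.70 and 4.84 CPM and at 7.25, 6.28 and 8.63 CPM (0.63 ± 0.11, adjusted p = 0.000424). None of these 3 overlapped between doses. DEPP1, a target of the transcription factor FOXO1, stood at 15.4, 15.1 and 15.9 CPM and at 20.9, 20.1 and 19.6 CPM (0.39 ± 0.064, adjusted p = 0.000181). It was the 1 gene called among 21 of the FOXO1 and gluconeogenesis list, where 0.758% of all genes tested were called higher. TAGLN, an actin-binding protein, rose by 0.42 ± 0.081 (34.4 to 36.4 against 44.9 to 50.3 CPM), and the tight junction protein CLDN6 by 0.42 ± 0.077 (11.6 to 11.8 against 14.7 to 16.3 CPM). FABP1, the liver fatty acid-binding protein, stood at 81.4, 106 and 92.5 CPM and at 139, 113 and 122 CPM (0.42 ± 0.083, adjusted p = 0.00175). It missed the threshold without the first library of either dose (0.34 at 100 and 0.33 at 20 µg/mL, adjusted p = 0.0661 and 0.0598).

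Lipid and amino acid genes gave single calls in both directions. CPT1A, which brings long-chain fatty acids into mitochondria, stood at 38.9, 38.0 and 38.8 CPM and at 46.4, 45.5 and 43.7 CPM (0.23 ± 0.050, adjusted p = 0.00568; 0.21 and adjusted p = 0.0631 without the first library at 100 µg/mL). PLIN2, a lipid droplet coat protein, stood at 117, 135 and 124 CPM and at 109, 111 and 112 CPM (-0.18 ± 0.042, adjusted p = 0.0135), and missed the threshold without the first library at 100 µg/mL (-0.17, adjusted p = 0.0955) or the second at 20 µg/mL (-0.12, adjusted p = 0.243). Both pairs of doses stood apart, CPT1A upwards and PLIN2 downwards. ASNS, asparagine synthetase and a target of the stress factor ATF4, stood at 42.4, 43.5 and 45.6 CPM and at 35.0, 35.8 and 38.1 CPM (-0.27 ± 0.059, adjusted p = 0.00582), with 64.1, 58.1 and 66.0 CPM at 500 µg/mL; it missed the threshold without the first library at 100 µg/mL (-0.25, adjusted p = 0.0695) or the third at 20 µg/mL (-0.25, adjusted p = 0.0606). With DDIT4 it made up the 2 falls among 27 genes of the ATF4 list, against 0.528% of all genes tested, and none rose. AREG, a ligand of the EGF receptor, stood at 7.32, 6.31 and 6.05 CPM and at 9.97, 8.36 and 10.3 CPM (0.54 ± 0.11, adjusted p = 0.00372; 0.48 and adjusted p = 0.0532 without the third library at 100 µg/mL).

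Immediate early genes, which growth and stress signals switch on within minutes, gave a few rises. Of 21 tested 3 rose (JUN, JUND and KLF6), against 0.758% of all genes tested; 19 differences were positive and the median was 0.16. JUN stood at 31.5, 29.4 and 29.7 CPM and at 38.3, 35.2 and 38.0 CPM (0.30 ± 0.072, adjusted p = 0.0179). JUND stood at 61.6, 53.4 and 51.8 CPM and at 90.9, 66.3 and 71.4 CPM (0.45 ± 0.12, adjusted p = 0.0389), and KLF6 at 89.5, 81.9 and 81.5 CPM and at 106, 97.3 and 99.1 CPM (0.26 ± 0.061, adjusted p = 0.0139). The first library at 100 µg/mL was the highest in all 3. No member passed without that library, without the second or without the third at 20 µg/mL, and 1 passed without the third at 100 µg/mL; without the first at 100 µg/mL the values were 0.27 for JUN (adjusted p = 0.109), 0.31 for JUND (0.4) and 0.22 for KLF6 (0.134).

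Of 23 tested hypoxia-response genes 5 fell at 100 µg/mL, against 0.528% of all genes tested, and none rose, with a median of -0.07. BHLHE40, a transcriptional repressor of the clock and hypoxia responses, stood at 28.2, 30.4 and 27.5 CPM at 20 µg/mL and at 19.7, 21.8 and 23.0 CPM at 100 µg/mL (-0.42 ± 0.093, adjusted p = 0.00803). LOX, which cross-links collagen, stood at 21.1, 28.3 and 22.7 CPM and at 16.6, 16.9 and 18.7 CPM (-0.46 ± 0.085, adjusted p = 0.000798). Their vehicle libraries stood at 15.3, 22.7 and 22.5 CPM for BHLHE40 and at 17.4, 18.1 and 20.8 CPM for LOX, overlapping the 100 µg/mL values. The other members that fell were BNIP3L (-0.33), PDK1 (-0.30) and DDIT4 (-0.39). From the glycolysis list 3 of 22 fell, the fructose bisphosphate regulators PFKFB3 (-0.73 ± 0.15) and PFKFB4 (-0.52 ± 0.12) and the glucose transporter SLC2A3 (-0.25 ± 0.047), with a median of -0.03.

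The second library at 20 µg/mL was the highest of its dose in BHLHE40, LOX, BNIP3L, PDK1, DDIT4, PFKFB3, PFKFB4 and SLC2A3. Without it 1 hypoxia gene and 1 glycolysis gene were called, with BHLHE40 at -0.37 (adjusted p = 0.0704), BNIP3L at -0.26 (0.0746), PFKFB3 at -0.57 (0.078) and PFKFB4 at -0.38 (0.173), while LOX still passed. The hypoxia count was 2 without the first library at 100 µg/mL and 3 without the third, and the glycolysis count was 1 without the first. BHLHE40 was then -0.36 (adjusted p = 0.107), PFKFB3 -0.62 (0.0663) and PFKFB4 -0.50 (0.0673). DDIT4 missed the threshold without either of these, the third library at 100 µg/mL or the third at 20 µg/mL (-0.34 to -0.40, adjusted p = 0.0673 to 0.132). The part of this library in the result was not tested further.

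Genes of the mitochondrial genome summed to more at 100 µg/mL. Their sum was 102000, 97100 and 92500 CPM at 20 µg/mL and 127000, 116000 and 104000 CPM at 100 µg/mL, without overlap, against 74000 to 90000 CPM in vehicle. All 15 tested differences were positive, with a median of 0.31. Of the 15, 3 passed, MT-ATP8, MT-ND6 and the ribosomal RNA MT-RNR1, against 0.758% of all genes tested. MT-ATP8 stood at 245, 231 and 191 CPM and at 561, 283 and 408 CPM (0.91 ± 0.20, adjusted p = 0.00863). MT-RNR1 stood at 8020, 7900 and 7750 CPM and at 10500, 8990 and 9680 CPM (0.30 ± 0.059, adjusted p = 0.00197). The first library at 100 µg/mL was the highest in each of these sets of values; without it no mitochondrial gene passed, with MT-ATP8 at 0.63 (adjusted p = 0.213) and MT-ND6 at 0.65 (0.338). The count was 11 when the 6 libraries were fitted alone and 14 with no filter on low counts.

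Genes of several other kinds gave scattered single calls. Of all genes tested 0.758% were called higher and 0.528% lower. NR1H4, the bile acid receptor FXR, stood at 62.8, 62.7 and 60.7 CPM and at 55.2, 54.1 and 49.5 CPM (-0.23 ± 0.054, adjusted p = 0.0153), and missed the threshold without the third library at 100 µg/mL (-0.19, adjusted p = 0.186) and without the first or second at 20 µg/mL (both -0.22, adjusted p = 0.0737 and 0.0684). ACSL4, a long-chain acyl-CoA synthetase, stood at 699, 739 and 703 CPM and at 606, 629 and 593 CPM (-0.23 ± 0.043, adjusted p = 0.00115), and NKD1, a feedback inhibitor of WNT signalling, at 443, 435 and 450 CPM and at 369, 384 and 382 CPM (-0.23 ± 0.043, adjusted p = 0.00113). HOXD1, a homeobox transcription factor, stood at 15.5, 16.1 and 15.4 CPM and at 11.5, 12.1 and 10.8 CPM (-0.45 ± 0.087, adjusted p = 0.00175). ERRFI1, a feedback inhibitor of the EGF receptor, fell by 0.19 ± 0.035 (181 to 189 against 159 to 163 CPM). These last 4 passed whichever library was left out. LYZ, lysozyme, was the 1 gene called among 7 tested endothelial and blood markers (1150 to 1160 against 1350 to 1550 CPM; 0.33 ± 0.065, adjusted p = 0.00243; 0.27 and adjusted p = 0.0661 without the first library at 100 µg/mL), and SPP1, osteopontin, the 1 called among 4 bile duct markers (494 to 509 against 586 to 590 CPM; 0.23 ± 0.049; 0.21 and adjusted p = 0.0548 without the second library at 20 µg/mL).

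Several programmes showed few or no calls. Mitosis genes gave 2 falls of 27, against 0.528% of all genes tested, with 25 negative differences and a median of -0.09. By edgeR 10 were lower and 0 higher at an unadjusted p under 0.05. Their summed level was 3800 to 3880 CPM at 20 µg/mL and 3580 to 3650 CPM at 100 µg/mL, without overlap. In vehicle it was 3770 to 3810 CPM. The 2 called falls were BUB1 and the spindle factor TPX2 (297 to 307 against 267 to 283 CPM, -0.15 ± 0.031, adjusted p = 0.00235). BUB1 (-0.14) missed the threshold without the first or the third library at 100 µg/mL. It also missed it without the second or the third at 20 µg/mL. In these fits BUB1 was at -0.12 to -0.15 (adjusted p = 0.0896 to 0.216). DNA replication genes gave none of 33, with a median of -0.03. By edgeR no gene was called in the cholesterol synthesis (26 tested), endoplasmic reticulum chaperone (20), cytosolic chaperone (16), acute phase (14), coagulation and complement (25), p53 target (24), urea cycle (13), MHC class I (17), nuclear RNA and histone (12), liver marker (12) and fibroblast (4) lists. Among these lists without a call, those with the most genes at an unadjusted p under 0.05 were cholesterol synthesis and p53 targets. Cholesterol synthesis had 1 higher and 7 lower, and p53 targets had 4 higher and 3 lower. DNA replication had 1 higher and 3 lower, and the nuclear RNA and fibroblast lists had none. DESeq2 called 1 gene each in the 2 chaperone lists, the coagulation, urea cycle and p53 lists and none in the others. The synthase HMGCS1, of the cholesterol list, stood at 442, 407 and 419 CPM and at 411, 393 and 369 CPM (-0.11 ± 0.056, adjusted p = 0.42), and albumin (ALB) at 8040, 8220 and 8260 CPM and at 7870, 7810 and 7720 CPM (-0.07 ± 0.047, adjusted p = 0.619). A p above the threshold does not show that these genes stayed level.

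**Figure D3:**
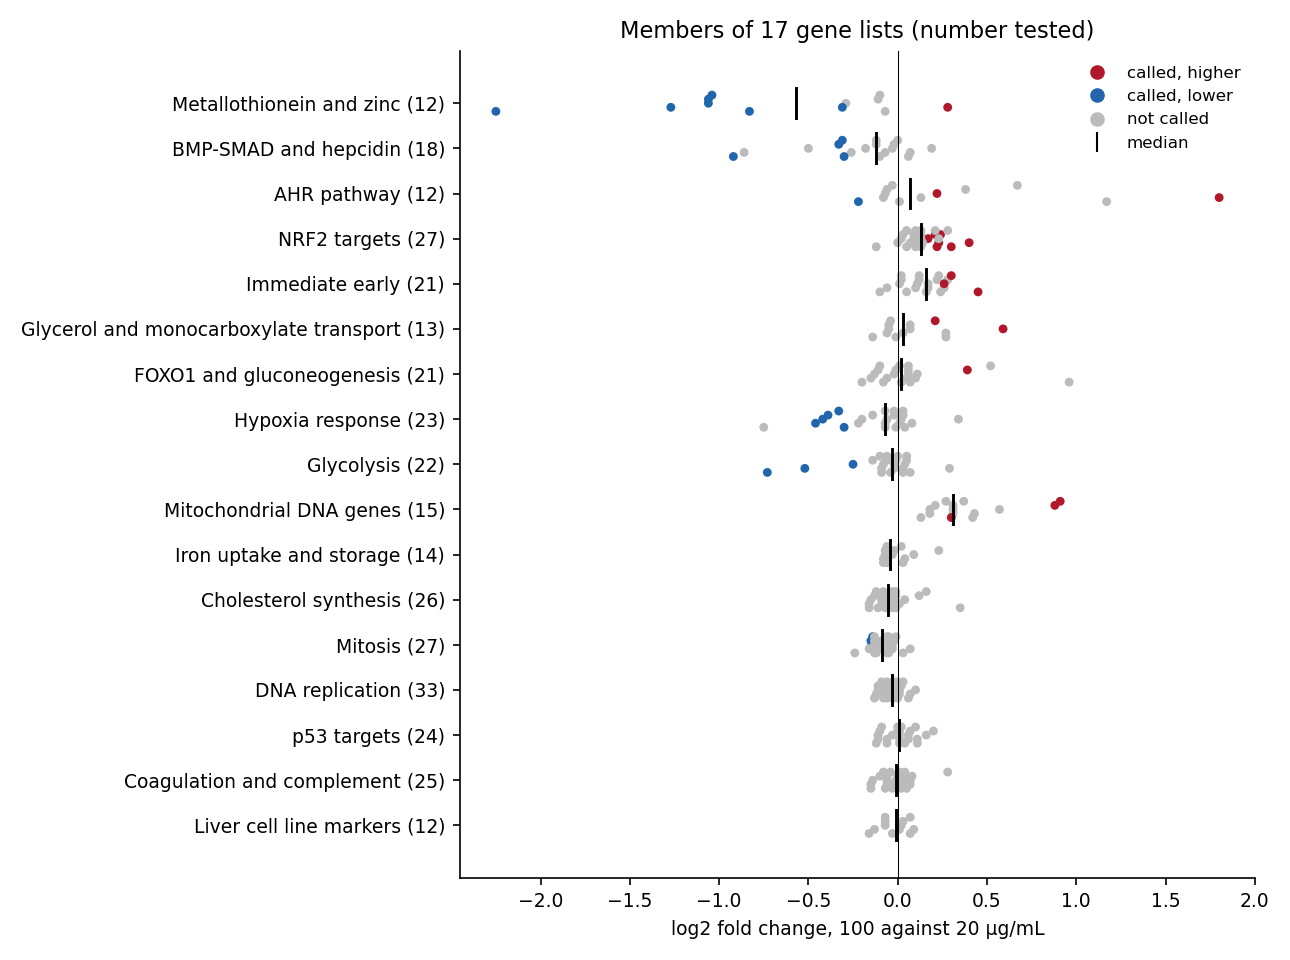
Log2 difference between 100 and 20 µg/mL for each tested gene of 17 lists, one row a list; red points passed the test as higher and blue points as lower, grey points did not pass, and the bar marks the median. Metallothionein and zinc genes reach furthest to the left, and the mitochondrial genes lie wholly to the right of 0.

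EIF3CL, which encodes a copy of the translation factor subunit EIF3C, had the largest fall among called genes (-4.77 ± 1.2, adjusted p = 0.0284), from 106, 62.5 and 120 CPM to 7.75, 2.73 and 0 CPM. EIF3C itself stood at 782, 818 and 745 CPM and at 865, 845 and 910 CPM. The sum of the copies was 888, 881 and 866 CPM at 20 µg/mL and 872, 848 and 910 CPM at 100 µg/mL, which overlap. The reads of these near-identical genes were split by the counting, so that the fall of EIF3CL is uncertain; it missed the threshold without any one of the libraries other than the second at 20 µg/mL (-4.22 to -6.07, adjusted p = 0.072 to 0.181).

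The further step from 100 to 500 µg/mL moved far more genes: 2861 of 16093 were higher (17.8%) and 2909 lower (18.1%). Both steps are 5-fold in concentration and share the 100 µg/mL libraries, so values are set side by side and the difference of the steps, first minus second, was tested in the same fit. It passed for 2521 genes (15.7%), and for 1644 without the first library at 100 µg/mL. CYP1A1 reached 557, 573 and 579 CPM at 500 µg/mL, a second step of 3.05 ± 0.092 after 1.80 (difference -1.24, adjusted p = 2.18e-07). HAMP dropped to 2.10, 2.81 and 1.24 CPM, a second step of -3.92 ± 0.20 after -0.92 (difference 3.00, adjusted p = 2.55e-11). For CYP1A1 and HAMP the second step was thus the larger on the log2 scale.

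The counts assigned to single metallothionein genes parted at the second step. As at the first step, ambiguous reads were shared among these genes, so that the split between members is less certain. MT1G fell to 7.97, 7.81 and 6.27 CPM (-2.35 ± 0.17; difference of the steps 1.07, adjusted p = 0.00192) and MT1F to 4.73, 5.67 and 3.89 CPM (-2.12 ± 0.14; difference 1.06, adjusted p = 0.000153). MT1E stood at 35.3, 35.2 and 27.9 CPM, a second fall of 1.36 ± 0.12 that was not shown to differ from the first (difference 0.30, adjusted p = 0.342). MT2A instead rose, to 269, 231 and 168 CPM (0.42 ± 0.13, adjusted p = 0.00677; difference -1.25, adjusted p = 3.89e-05). For MT2A the third library at 500 µg/mL lay within the range of the 100 µg/mL libraries, and the other 2 lay above it. SLC30A1, at 83.2 to 84.3 CPM, did not pass at the second step (-0.09 ± 0.047, adjusted p = 0.141).

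Of the 23 hypoxia genes 19 rose and 1 fell at the second step, against 17.8% higher and 18.1% lower of all genes tested. BHLHE40 reached 46.6, 40.9 and 40.8 CPM, above every lower dose and the vehicle (1.00 ± 0.091; difference of the steps -1.41, adjusted p = 4.77e-09). LOX, at 20.6 to 21.9 CPM, came back within the range of the lower doses (0.28 ± 0.088, adjusted p = 0.0093). ACTA1 stood at 22.2, 23.9 and 21.9 CPM, so that its second step did not pass (-0.07 ± 0.076, adjusted p = 0.502) and differed from the first (difference 0.73, adjusted p = 5.55e-05). Of the 27 NRF2 targets 18 rose and 3 fell at this step, against the same background.

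Other genes moved at 500 µg/mL with no call before it. IGFBP1, a secreted binder of insulin-like growth factors, stood at 45.8, 70.2 and 53.2 CPM at 20 µg/mL, at 59.6, 61.5 and 60.1 CPM at 100 µg/mL and at 613, 603 and 628 CPM at 500 µg/mL (0.10 ± 0.10, then 3.35 ± 0.098; difference -3.25, adjusted p = 4.64e-19). The lower doses overlapped and the highest was far above them. EGR1, an immediate early transcription factor, stood at 12.3, 11.4 and 11.5 CPM, then at 13.9, 12.5 and 14.9 CPM (0.22 ± 0.086, adjusted p = 0.232), then at 39.3, 35.4 and 34.5 CPM (1.41 ± 0.077). The replication helicase subunit MCM3 stood at 319 to 328 CPM, then at 306 to 324 CPM (-0.05 ± 0.028, adjusted p = 0.521), then at 182 to 188 CPM (-0.76 ± 0.028), and cyclin A2 (CCNA2) at 175 to 178, 154 to 167 and 88.5 to 94.2 CPM (-0.12 ± 0.037, adjusted p = 0.0763, then -0.83 ± 0.038). CCNA2 passed at the first step with DESeq2. At the second step 27 of 27 mitosis genes and 32 of 33 replication genes fell, against 18.1% of all genes tested. The BMP-SMAD list gave 10 falls and 3 rises of 18, with ID1 at 36.2, 34.8 and 35.4 CPM (-2.05 ± 0.095).

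**Figure D4:**
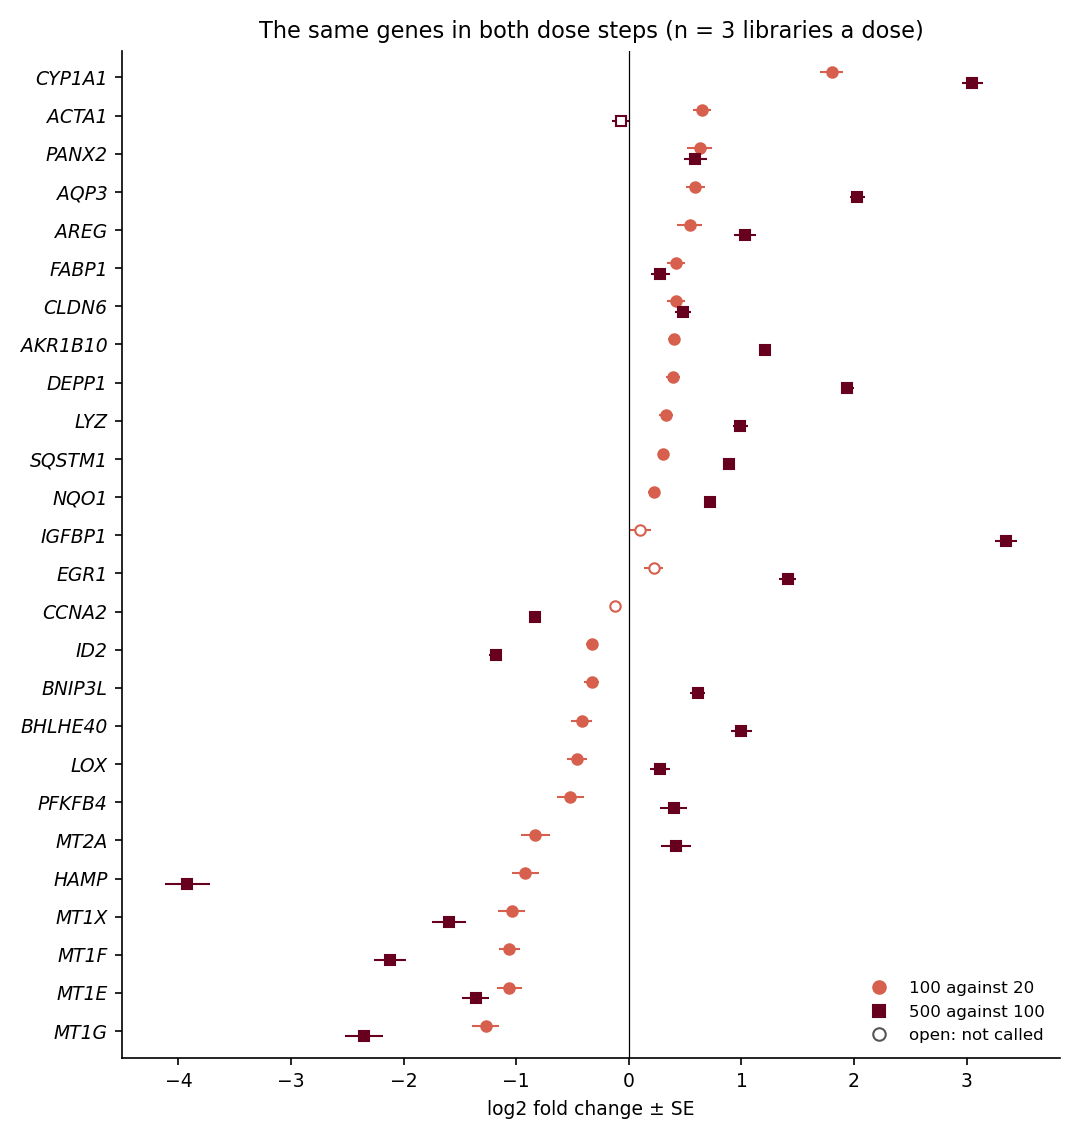
Log2 difference ± SE of 26 genes at the first step (100 against 20 µg/mL) and the second (500 against 100 µg/mL); open points did not pass the test. MT2A, BHLHE40, BNIP3L, LOX and PFKFB4 lie below 0 at the first step and above it at the second, and IGFBP1 goes from 0.10 to 3.35.

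The same step of the Citri Unshius Pericarpium extract, whose sample codes in the titles begin with the same number (5), was compared first. The response of Cimicifugae Rhizoma differed from it in 34 of 16093 genes (0.211%), 20 in the upward and 14 in the downward direction. The count was 14 without the first library at 20 µg/mL or the first or the third at 100 µg/mL of Cimicifugae Rhizoma, and 17, 22 and 21 without the first or second library at 100 µg/mL or the second at 20 µg/mL of Citri. CYP1A1 stood at 11.4, 12 and 11 CPM with Citri at 20 µg/mL and at 15.2, 15.4 and 16.7 CPM at 100 µg/mL (0.46), so that the responses differed by 1.34 ± 0.17 (adjusted p = 8.64e-06). HAMP with Citri stood at 60.7, 68.2 and 73.1 CPM and at 73.1, 76.2 and 76.3 CPM (0.16), a difference of -1.08 ± 0.16 (adjusted p = 6.65e-05). MT1G with Citri stood at 123, 114 and 123 CPM and at 127, 113 and 116 CPM (-0.02), a difference of -1.25 ± 0.17 (adjusted p = 1.59e-05). The differences for MT1E, MT1X and MT1F were -1.03, -1.0 and -0.92.

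ACTA1 with Citri stood at 12.7 to 15.4 CPM and at 13.3 to 16.3 CPM, a difference of 0.58 ± 0.11 (adjusted p = 0.00906). AKR1B10 and SQSTM1 also differed (0.32, adjusted p = 0.0204, and 0.27, adjusted p = 0.00121). By contrast the hypoxia genes were not shown to differ: BHLHE40 with Citri stood at 27.3, 31.3 and 26.4 CPM and at 18.4, 20.2 and 19.8 CPM (-0.54; difference 0.13, adjusted p = 0.922), and LOX at 20.9, 25.8 and 21.6 CPM and at 17.2 to 18.4 CPM (-0.35; difference -0.11, adjusted p = 0.922). In Citri too the second library at 20 µg/mL was the highest of its dose in both genes. The hypoxia list had a median of -0.12 with Citri and of -0.07 with Cimicifugae Rhizoma. At 20 µg/mL, in a comparison chosen after the data were seen, the 2 extracts differed in 2 genes (0.0124%): CYP1A1 was higher with Cimicifugae Rhizoma (0.79, adjusted p = 0.00379) and MT1F lower (-0.50, adjusted p = 0.00646). No gene passed without the third library at 20 µg/mL of Cimicifugae Rhizoma or the first or the third of Citri, and 1 passed without the first of Cimicifugae Rhizoma.

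The extract of Aconiti Lateralis Radix Preparata also raised CYP1A1 at this step. Its sample codes begin with another number (6); all titles carry the same batch letter, and what the number stands for is not given, so that it cannot be told apart from the extract in this comparison. The responses differed in 194 genes (1.21%), 87 upward and 107 downward; the count was 119, 126 and 128 without the first library at 100 µg/mL or the first or the third at 20 µg/mL of Cimicifugae Rhizoma, and 114, 121 and 99 without the first or second library at 100 µg/mL or the third at 20 µg/mL of Aconiti. CYP1A1 with Aconiti stood at 176, 113 and 108 CPM at 20 µg/mL and at 488, 521 and 522 CPM at 100 µg/mL. The rise of 1.95 differed from that of Cimicifugae Rhizoma by -0.15 ± 0.14 (adjusted p = 0.804), although the levels were far higher at either dose. The responses of MT1G and HAMP differed from those with Aconiti. With it MT1G stood at 116, 131 and 105 CPM and at 84.5, 88.2 and 94.0 CPM (-0.40; difference -0.88 ± 0.17, adjusted p = 0.0017). HAMP stood at 66.6, 74.9 and 66.9 CPM and at 59.2, 63.9 and 68.1 CPM, which overlap (-0.12; difference -0.80 ± 0.16, adjusted p = 0.00256). The metallothionein and zinc list's median at this step was -0.57 with Cimicifugae Rhizoma, -0.19 with Aconiti and -0.03 with Citri. It was -0.50 with Bupleuri Radix, -0.31 with Banhasasim-tang and -0.22 with Yijung-tang. For the BMP-SMAD and hepcidin list the median was -0.12 with Cimicifugae Rhizoma, -0.08 with Aconiti and 0.01 with Citri. That list's median was -0.15 with Bupleuri Radix, -0.02 with Banhasasim-tang and -0.01 with Yijung-tang. Differences of gene responses from Bupleuri Radix, Banhasasim-tang and Yijung-tang were not tested.

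The NRF2 targets AKR1B10 and GCLM moved more with Aconiti. AKR1B10 stood at 104 to 108 CPM and at 208 to 213 CPM (1.00; difference -0.59, adjusted p = 4.34e-08), and GCLM at 62.6 to 68.1 CPM and at 101 to 108 CPM (0.70; difference -0.47, adjusted p = 1.37e-06); the list's median was 0.35 with Aconiti and 0.13 with Cimicifugae Rhizoma. SLC16A6, a monocarboxylate transporter family member, was raised with Aconiti (22.1 to 23.5 against 44.3 to 47.1 CPM; 0.98) and stood at 18.5 to 20.7 and 18.5 to 20.1 CPM with Cimicifugae Rhizoma, a difference of -1.03 ± 0.10 (adjusted p = 7.83e-10). It reached 36.9 to 40.4 CPM at 500 µg/mL of Cimicifugae Rhizoma. BHLHE40, at 18.4 to 19.7 CPM and at 21.1 to 24.6 CPM with Aconiti (0.26), differed by -0.67 (adjusted p = 0.00198).

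**Figure D5:**
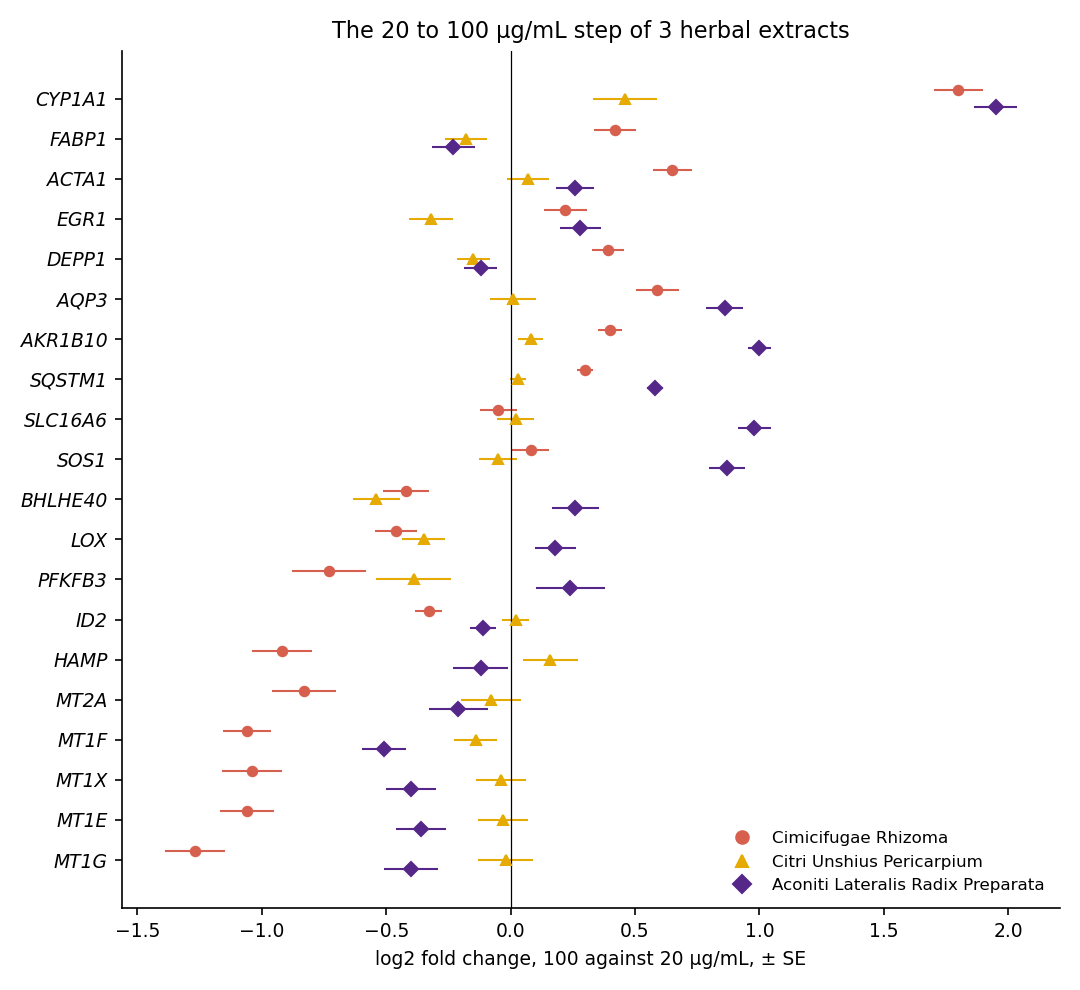
Log2 difference ± SE between 100 and 20 µg/mL for 20 genes with Cimicifugae Rhizoma, Citri Unshius Pericarpium and Aconiti Lateralis Radix Preparata. MT1G, MT1F, MT1E, MT1X and HAMP lie furthest below 0 with Cimicifugae Rhizoma, CYP1A1 lies at 1.80 with Cimicifugae Rhizoma and at 1.95 with Aconiti, and BHLHE40 and LOX are lowered with Cimicifugae Rhizoma and Citri.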

How the data were processed

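Total RNA from HepG2 cells was made into directional libraries (MGIEasy kit) and read on an MGI sequencer in 100-base pairs, per the labels' protocols. Per the submitters' processing notes, reads were checked with FastQC 0.11.9, trimmed with Trim Galore 0.6.5, aligned to hg38 with STAR 2.7.3a and counted with RSEM 1.3.3; the annotation release is not given in the sources used here. The authors deposited RSEM expected counts per gene (24.5% of nonzero values were not whole), in which ambiguous reads are shared among genes; these were rounded to whole numbers. The deposited table held 207 further columns that are not used here. Genes were matched to GENCODE release 29 by identifier (57055 of 60675).

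Counts of 57 libraries in 19 groups were fitted together with edgeR 4.0.16 (R 4.3.3) after its default filter on low counts (16093 genes kept) and TMM scaling, and each comparison was a contrast tested with the quasi-likelihood test at a Benjamini-Hochberg adjusted p of 0.05. The 3 Bojungikgi-tang libraries, 1 a dose, were left out of the fit. CPM are TMM-scaled, SE were derived from the F statistic, and the depth of 20711534 to 24313341 counts limits precision for genes of few counts. Without replicate cultures named in the labels, the test covers the spread between libraries only. The same fit was also run on simulated counts with known changes, and the outcome is not given here.

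Genes were named by rule among protein-coding genes of 5 CPM or more. These were the 15 largest rises and falls without overlap and up to 3 called members of each of 42 lists. Where a list had no call, its members of the highest level were taken. The 5 most extreme genes at each end of the difference of steps and of each comparison of extracts were added. Named whatever their values were CYP1A1, HAMP, ID1, IGFBP1, AQP3, MT1F, MT1G, MT1X, MT2A, EGR1, CCNA2, MCM3, NQO1, HMGCS1, ALB and AFP. Further list members were named after their values were seen. They were MT1M, MT1A, SLC30A1, SLC39A10, SLC39A14, SLC30A10, ID3, SMAD6, SMAD7, PDK1, TFRC, AHRR, TIPARP, SRXN1, ABCC3 and the ribosomal RNA MT-RNR1. The comparison and the lists were chosen with earlier results of these data known. Alternatives were median ratio size factors, no filter or a minimum of 1 CPM, DESeq2 1.42.0, fewer groups in the fit, a GC trend, the replicate number as a block, and leaving out each library.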

Additional observations from a re-analysis of the deposited data

Results flagged for a closer look

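Of the genes that passed the test of the difference between extracts at the 20 to 100 µg/mL step, the 5 with the most negative and the 5 with the most positive difference among those named are given for each comparison. Against Citri Unshius Pericarpium the response of Cimicifugae Rhizoma was lower on the log2 scale by -1.25 ± 0.17 for MT1G, -1.08 ± 0.16 for HAMP, -1.03 ± 0.15 for MT1E, -1.0 ± 0.16 for MT1X and -0.92 ± 0.13 for MT1F. It was higher by 1.34 ± 0.17 for CYP1A1, 0.60 ± 0.12 for FABP1, 0.58 ± 0.11 for ACTA1, 0.55 ± 0.12 for EGR1 and 0.53 ± 0.092 for DEPP1 (edgeR adjusted p = 8.64e-06 to 0.0269). FABP1 stood at 90.3 to 96.9 CPM with Citri at 20 µg/mL and at 80.1 to 85.5 CPM at 100 µg/mL. EGR1 missed the threshold without any one of 9 of the 12 libraries compared, ACTA1 without any one of 3, and FABP1 without the first Cimicifugae Rhizoma library of either dose.

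Against Aconiti Lateralis Radix Preparata the response was lower by -1.03 ± 0.10 for SLC16A6, -0.97 ± 0.21 for PFKFB3, -0.88 ± 0.17 for MT1G, -0.80 ± 0.16 for HAMP and -0.79 ± 0.10 for SOS1. SOS1, an exchange factor that activates RAS, stood at 102 to 110 and 109 to 114 CPM with Cimicifugae Rhizoma and at 122 to 161 and 245 to 252 CPM with Aconiti. It was higher by 1.25 ± 0.19 for MT-ND4, 1.15 ± 0.29 for MT-ATP8, 1.02 ± 0.13 for MT-ND4L, 1.01 ± 0.22 for MT-ND3 and 0.81 ± 0.15 for MT-CO3 (adjusted p = 7.83e-10 to 0.0314). MT-ATP8 missed the threshold without any one of 9 libraries. The median of the mitochondrial list was -0.19 with Aconiti and 0.31 with Cimicifugae Rhizoma. No member of the list rose by more than 0.91 with Cimicifugae Rhizoma. MT-ND4, MT-ATP8, MT-ND4L and MT-ND3 thus had negative differences with Aconiti, although the summed level rose. The summed level of the mitochondrial genes with Aconiti was 97200 to 108000 CPM at 20 µg/mL and 150000 to 161000 CPM at 100 µg/mL, where MT-RNR1 alone stood at 26400 to 28200 CPM.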

How the results depend on the processing

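The 207 genes of 100 against 20 µg/mL became 391 with no filter on low counts (165 of the 207 among them), 344 with the 6 libraries fitted alone and 335 with the extracts whose codes begin with 5; leaving out 1 library gave 107 to 234. The share of higher genes stayed between 53.4% and 65.7% in all settings, from 58.9%. The 500 against 100 µg/mL count stayed within 1.5 times of 5770 in all settings (4973 to 5279 without 1 library), and the difference of the steps did so apart from leaving out 1 library (1644 to 2485). The 34 genes against Citri became 166 with no filter, 52 with the GC trend removed, 52 with the extracts whose codes begin with 5 and 55 with DESeq2, and 14 to 36 without 1 library. The 194 against Aconiti became 99 to 168 without 1 library. The 2 genes at 20 µg/mL became 79 with no filter, 5 with the GC trend removed, 18 with the groups fitted alone, 4 with DESeq2 and 0 to 2 without 1 library. The cause of these moves was not tested beyond the construction of each setting. With the replicate number as a block the counts were 388 for 100 against 20 µg/mL, 68 against Citri, 311 against Aconiti and 6 at 20 µg/mL. Same-numbered libraries at 20 and 100 µg/mL deviated together with r = 0.10, -0.01 and 0.04 across genes. At 20 and 500 µg/mL r was 0.09, 0.06 and 0.03, and at 100 and 500 µg/mL it was 0.24, -0.04 and 0.04. Not every library correlated best with its own number, so that whether the numbers pair the libraries is not settled. Of 1428 values of 102 named genes for 100 against 20 µg/mL, 1278 stayed on their side of the threshold, 125 fell below it, 25 came to pass and none reversed; 24 of the 64 called named genes were called in every setting. For the named genes of the difference of steps 1 of 170 values was lost, against Citri 15 of 200 and against Aconiti 9 of 199. MT1A, at 1.73 to 2.32 CPM, had an SE of 0.15 and MT1M, at 0.173 to 1.12 CPM, one of 0.35, against 0.046 for SLC30A1 at 85.6 to 111 CPM.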

Other observations

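The 3 libraries of Bojungikgi-tang, a formula that lists Cimicifugae Rhizoma among its herbs, had 1 library a dose and entered no test. CYP1A1 stood at 17, 24.5 and 90.2 CPM (here per library total, without scaling) at 20, 100 and 500 µg/mL, against 11.5 to 14.2 CPM in the vehicle libraries and 65.5 to 72.3 CPM with Cimicifugae Rhizoma at 100 µg/mL. MT1G stood at 154, 132 and 62.3 CPM (vehicle 85.7 to 112), MT1F at 62.6, 56.9 and 27.3 CPM (vehicle 66.9 to 70.8), and HAMP at 66.8, 73.9 and 37.4 CPM (vehicle 65.3 to 70.0). CYP1A1 was highest and the other 3 genes lowest in the library at 500 µg/mL, without replicates to give an error.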
